A study of Mus musculus with 8 samples.

Results

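The HCN channels are the hyperpolarisation-activated, cyclic nucleotide-gated cation channels, and their genes Hcn2, Hcn3 and Hcn4 were followed here across the nuclei of the mouse retina. The 3 genes were found by symbol among the 33696 genes of the deposited tables. The libraries were made by single-nucleus RNA sequencing on a 10x 3′ droplet platform, so that each captured RNA molecule was counted once by its barcode, as a UMI. Both groups of mice carried floxed Piezo2. The control group, Piezo2f/f without Cre, gave 4 libraries numbered 1 to 4. The conditional knockout group (cKO), Olig2-cre;Piezo2f/f, gave another 4, numbered 10 to 13. Per the study's description, Olig2-cre mice have 1 intact copy of Olig2, so the groups differ in that allele too. Retinae were taken at postnatal day 120 and 6 were pooled for a library, from which nuclei positive for NeuN and RBPMS had been sorted to enrich retinal ganglion cells (RGCs). The mice were female per the study's methods, and the labels give a sex for the controls only. Nothing in the labels says that the pools of a group came from separate litters or days, so p-values measure the spread between these pools.

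HCN channels open when the membrane is hyperpolarised and carry the mixed sodium and potassium current known as Ih in neurons and If in the heart. Direct binding of cyclic AMP eases the opening of HCN2 and HCN4, whereas HCN3 responds little to it. HCN4 is best known from the sinoatrial node, HCN2 from thalamic neurons and the heart, and HCN3 is the least studied of these subunits. In the retina, Ih is known to shape the light responses of photoreceptors and bipolar cells.

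On the GRCm39 build, Hcn2 (ENSMUSG00000020331) lies on the plus strand at chr10:79552120-79571948 and spans 19829 bases. Hcn3 (ENSMUSG00000028051) lies on the minus strand at chr3:89053381-89067544 and spans 14164 bases. Hcn4 (ENSMUSG00000032338) lies on the plus strand at chr9:58730132-58770458 and spans 40327 bases. In the GENCODE annotation Hcn2 overlaps the lncRNA Gm66204 and Hcn3 overlaps Pklr, both on the opposite strand, and Hcn4 overlaps no other gene. The strand setting of the count is not given in the sources used here, so reads of these opposite-strand neighbours cannot be told apart from those of Hcn2 and Hcn3 with certainty. Because 3′ counts also depend on where priming occurs, levels are compared within each gene only.

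The libraries held 35697629 to 60088630 UMIs, and 2211 to 5316 nuclei per library were kept, 34949 in all. Of 34810 distinct barcodes among them, 139 occurred in more than 1 library, with at most 11 shared by any pair of libraries. Each nucleus was assigned to a class by UMIs of marker genes, none of them an HCN gene, and a class takes its name from those markers. RGC-like nuclei numbered 21809, with 1236 GABAergic, 499 glycinergic and 165 starburst amacrine-like nuclei. There were 636 rod bipolar-like, 353 ON cone bipolar-like and 135 OFF cone bipolar-like nuclei. There were also 1353 rod-like, 308 cone-like, 1380 Müller glia-like and 97 horizontal-like nuclei, while 1043 amacrine nuclei had no subtype, 5901 nuclei passed no gate and the rest fell in groups of at most 20. Only 3 libraries had more than 10 horizontal-like nuclei, and 48 of the 97 came from control replicate 1. Levels are given as UMIs per 1e+06 UMIs of the summed nuclei (CPM). Rbpms, which encodes the RNA-binding protein used in the sort, stood at 1193 CPM in RGC-like nuclei and at 14.2 CPM in rod bipolar-like nuclei. Some classes also carried a marker of another, with the ON-pathway channel gene Trpm1 at 909 CPM in OFF cone bipolar-like nuclei and the endothelial gene Flt1 at 1990 CPM in Müller glia-like nuclei. The part of these markers in the results was not tested. Piezo2, the floxed gene, stood at 14.4 ± 2.27 CPM in control and 12.2 ± 2.57 CPM in cKO RGC-like nuclei (SD of 4 libraries in either group, exact permutation p = 0.314, two-sided). A 3′ count need not fall when an internal exon is removed, and Olig2 had 1 UMI in all RGC-like nuclei, so Piezo2 gave no check of the labels here.

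Free RNA in the droplets carried all 3 genes. In empty droplets Hcn2 stood at 50.2 ± 5.52 CPM, Hcn3 at 18.1 ± 3.16 CPM and Hcn4 at 21.9 ± 1.36 CPM (SD, n = 8 libraries). The part of a class's UMIs that free RNA could supply was estimated from rod markers in the non-photoreceptor classes and from Müller glia markers in rods and cones. It came to 3.49% in RGC-like nuclei, 9.21% in rod bipolar-like nuclei, 10.2% in Müller glia-like nuclei and 15% in rod-like nuclei. Multiplied by the empty-droplet level, this gives the level that free RNA alone would leave in a class. Values at or below that level are read as background.

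Hcn2 was highest in RGC-like nuclei, at 30.6 ± 4.54 CPM from 5396 UMIs (SD, n = 8), where free RNA would leave 1.76 CPM. The control libraries held 24.2, 25.4, 33 and 32.3 CPM and the cKO libraries 27.2, 32.2, 37.5 and 33 CPM. GABAergic amacrine-like nuclei followed with 22.6 ± 4.75 CPM, at 18.7, 24.9, 27 and 31 CPM in control and 20.2, 17.4, 23 and 18.8 CPM in cKO libraries. The RGC-like level exceeded the GABAergic amacrine level in each of the 8 libraries, by 7.96 CPM on average. A two-sided exact paired permutation test of this neighbouring pair gave p = 0.00781, the smallest that 8 libraries allow, and an adjusted p of 0.0781 over the 10 neighbouring pairs of the order. The order was set by these same levels, and a lone pair at the smallest p cannot pass the adjustment over 10 pairs. That adjusted p therefore decides nothing here.

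**Figure D1:**
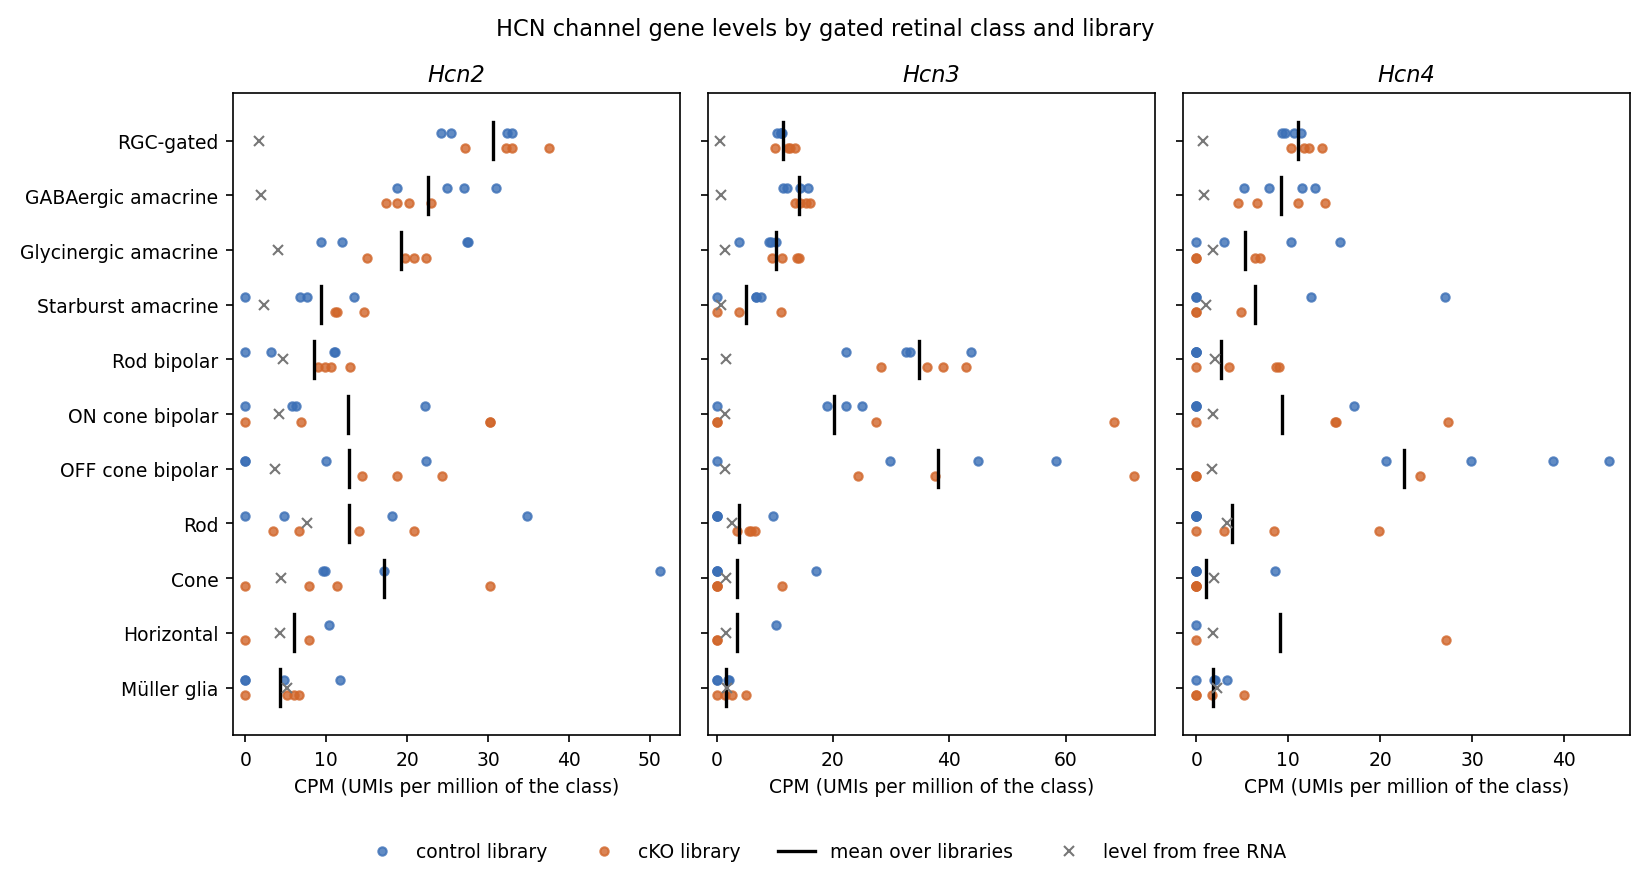
Each point is the level of Hcn2, Hcn3 or Hcn4 in 1 library and gated class, in CPM, with control libraries in blue and cKO libraries in orange, black bars are means over the libraries with more than 10 nuclei, and grey crosses are the level free RNA alone would leave. The Hcn2 bar is highest in RGC-like nuclei at 30.6 CPM, and every rod bipolar-like point of Hcn3, from 22.3 to 43.8 CPM, lies above every RGC-like point.

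Below these classes the order of Hcn2 was not resolved, since no other neighbouring pair had an adjusted p under 0.833. Glycinergic amacrine-like nuclei stood at 19.3 ± 6.7 CPM, cones at 17.2 ± 16.3, OFF cone bipolar at 12.8 ± 9.99, rods at 12.8 ± 11.5, ON cone bipolar at 12.7 ± 12.9, starburst amacrine at 9.31 ± 5.02, rod bipolar at 8.47 ± 4.47, horizontal at 6.08 ± 5.4 and Müller glia-like nuclei at 4.29 ± 4.14 CPM. Amacrine nuclei of no subtype, outside the order, held 26.8 ± 6.88 CPM. Several of these means rest on few molecules, with 7 Hcn2 UMIs in OFF cone bipolar-like and 11 in cone-like nuclei. The Müller glia level lay below the 5.14 CPM that free RNA would leave, so it is background. Free RNA would leave 7.59 CPM in rod-like nuclei, which were above their free-RNA level in 4 of 8 libraries. In horizontal-like nuclei it would leave 4.35 CPM, and 2 of 3 libraries were above.

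Each class was also compared with RGC-like nuclei of the same libraries, a comparison chosen after the levels had been seen. Hcn2 was lower than in RGC-like nuclei in 8 of the 10 classes at an adjusted p of 0.0156 to 0.0195 (exact paired permutation test, Benjamini-Hochberg over the 10 classes). Rod bipolar-like nuclei, for example, were lower in 8 of 8 libraries, by a mean difference of -22.1 ± 5.8 CPM (SD). The cone difference missed the threshold (adjusted exact p = 0.0781, lower in 6 of 8 libraries) and passed without control replicate 4 (-18.1 CPM), and horizontal-like nuclei, with 3 libraries, could not reach the threshold. With a stricter gate the difference of the GABAergic amacrine (-7.01 CPM), ON cone bipolar (-18 CPM) and rod-like nuclei (-15.7 CPM) kept its direction but missed the threshold, each at an adjusted exact p of 0.0938. After nuclei were thinned to 1000 UMIs each and shallower nuclei left out (160 RGC-like and 569 of the 1353 rod-like nuclei among them), the starburst, GABAergic amacrine, glycinergic amacrine, ON and OFF cone bipolar differences missed it too, at adjusted exact p of 0.0625 to 0.281.

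Hcn3 had another profile, with its highest mean levels in bipolar-like nuclei, although not every bipolar class was separated from RGC-like nuclei. Rod bipolar-like nuclei held 34.8 ± 7.3 CPM from 68 UMIs. The control libraries held 33.2, 22.3, 43.8 and 32.5 CPM and the cKO libraries 42.9, 36.1, 28.3 and 39 CPM. RGC-like nuclei held 11.5 ± 1.18 CPM from 2018 UMIs, between 10 and 13.5 CPM in all libraries, so the ranges did not overlap. The difference was 23.2 ± 7.66 CPM, positive in 8 of 8 libraries (adjusted exact paired permutation p = 0.0195). After thinning to 1000 UMIs per nucleus the difference was 27.7 CPM and missed the threshold (adjusted exact p = 0.0781). Free RNA would leave 1.66 CPM in rod bipolar-like nuclei.

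OFF cone bipolar-like nuclei reached 38.1 ± 23.4 CPM over 7 libraries, from 19 UMIs, and ON cone bipolar-like nuclei 20.2 ± 22.7 CPM from 22 UMIs. Single libraries spread widely in both, from 0 to 71.8 CPM in OFF and from 0 to 68.3 CPM in ON cone bipolar-like nuclei. Neither was separated from rod bipolar-like nuclei, with adjusted exact p of 1 for OFF and 0.286 for ON. Pooled over libraries, the ON cone bipolar level had an exact Poisson 95% interval of 12.9 to 31.2 CPM and the rod bipolar level one of 26.8 to 43.7 CPM, which covers counting error only. OFF cone bipolar-like nuclei were above RGC-like nuclei in 6 of 7 libraries (adjusted exact p = 0.0446), but leaving out any 1 of the 8 libraries ended that call, with differences of 21 to 33.2 CPM. Without cKO replicate 11, which gave no OFF cone bipolar value, only the adjustment over the other classes changed. Fewer libraries also raise the smallest exact p, so such a loss can come from the smaller set alone. ON cone bipolar-like nuclei were above RGC-like nuclei in 5 of 8 libraries, by 8.68 ± 22.8 CPM, which did not pass (adjusted exact p = 0.352), and the difference was 1.98 CPM without cKO replicate 13 and -0.37 CPM after thinning.

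GABAergic amacrine-like nuclei were slightly above RGC-like nuclei, at 14.1 ± 1.64 CPM, in 8 of 8 libraries, by 2.53 ± 1.75 CPM (adjusted exact p = 0.0195 over the classes and 0.0781 over neighbouring pairs). A lone neighbouring pair at the smallest p cannot pass its adjustment, so the second value decides nothing. With a stricter gate (4.58 CPM, adjusted exact p = 0.0527) and after thinning (4.79 CPM, adjusted exact p = 0.312) the call over the classes was lost. Glycinergic amacrine-like nuclei held 10.2 ± 3.22 CPM, and their difference of -1.36 CPM from RGC-like nuclei did not pass the test (adjusted exact p = 0.166). With free RNA subtracted, a step added after the levels had been seen, it was -2.17 CPM and passed (adjusted exact p = 0.0335), and it was -0.543 CPM without control replicate 4. Starburst amacrine (5.15 ± 4.12 CPM), rod (3.91 ± 3.66), cone (3.55 ± 6.75) and Müller glia-like nuclei (1.64 ± 1.71) were lower than RGC-like nuclei, at adjusted exact p of 0.0195 to 0.0391. None of these 4 calls held after thinning, where the adjusted exact p was 0.0521 for starburst, rod and Müller glia-like and 0.911 for cone-like nuclei. Leaving out any library but cKO replicate 11 ended the starburst call, and any but control replicate 4 the cone call, with differences of -6.93 to -5.02 CPM and -10 to -7.21 CPM. A smaller set raises the smallest exact p, and every starburst value kept in a set was still lower. The starburst losses can therefore come from the number of libraries alone. The Müller glia level was below the 1.84 CPM that free RNA would leave. Free RNA would leave 1.62 CPM in cone-like and 2.69 CPM in rod-like nuclei, which were above their free-RNA level in 2 and 5 of 8 libraries. Horizontal-like nuclei had 2 Hcn3 UMIs in all.

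Shares of nuclei with an Hcn3 UMI gave the same order where depth was alike. An Hcn3 UMI was seen in 10.5% ± 3.39 of rod bipolar-like and 0.464% ± 0.497 of Müller glia-like nuclei (SD, n = 8), whose median depths averaged 3019.7 and 2686 UMIs. In RGC-like nuclei, at 7484 UMIs, the share was 8.62% ± 1.89. After thinning to 1000 UMIs, which left out 4 rod bipolar-like, 160 RGC-like and 24 Müller glia-like nuclei, the shares were 3.89% ± 2.48 in rod bipolar-like, 1.33% ± 0.143 in RGC-like and 0.189% ± 0.273 in Müller glia-like nuclei. For Hcn2 the share in RGC-like nuclei was 20.8% ± 5.99, or 2.88% ± 0.59 after thinning, against 1.05% ± 0.888 and 0.598% ± 0.522 in Müller glia-like nuclei.

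Hcn4 was measured well only in RGC-like and GABAergic amacrine-like nuclei. RGC-like nuclei held 11.1 ± 1.45 CPM from 1981 UMIs, with 9.34, 11.4, 10.6 and 9.69 CPM in control and 10.3, 11.7, 13.7 and 12.3 CPM in cKO libraries. GABAergic amacrine-like nuclei held 9.22 ± 3.62 CPM from 80 UMIs, and their difference of -1.9 ± 3.29 CPM from RGC-like nuclei did not pass the test (adjusted exact p = 0.246). The highest mean, 22.6 ± 17.5 CPM in OFF cone bipolar-like nuclei, came from 12 UMIs. It was 20.6, 44.9, 38.8 and 29.9 CPM in the control libraries and 0, 24.3 and 0 CPM in the 3 cKO libraries with enough nuclei. The pooled OFF cone bipolar level had an exact Poisson 95% interval of 11.9 to 40.4 CPM, and its difference from RGC-like nuclei did not pass the test (adjusted exact p = 0.246).

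Rod bipolar-like nuclei, the class with much Hcn3, had 4 Hcn4 UMIs in all, 2.65 ± 4.01 CPM. No Hcn4 UMI was counted there in the controls, among 1044012 UMIs. With 3 counts taken as the limit of a count of 0, this allows a level of up to 2.87 CPM. The exact Poisson 95% interval ran up to 3.53 CPM. Hcn4 was lower than in RGC-like nuclei in rod bipolar, cone (1.07 ± 3.02 CPM) and Müller glia-like nuclei (1.77 ± 1.83 CPM), each in 8 of 8 libraries at an adjusted exact p of 0.026. Each of these 3 calls was lost when any library but control replicate 4 or cKO replicate 11 was left out, with differences between -11.4 and -8.05 CPM. Every library kept in such a set was still lower in these classes. With 7 libraries no exact p falls under 0.0156, so the losses can come from the smaller set alone. The cone and Müller glia levels were below the 1.95 and 2.23 CPM that free RNA would leave, and the rod bipolar level stood beside 2.02 CPM. ON cone bipolar (9.36 ± 10.7 CPM), horizontal (9.06 ± 15.7), starburst (6.35 ± 10.2), glycinergic amacrine (5.28 ± 5.68) and rod-like nuclei (3.9 ± 7.09) could not be placed in an order. Free RNA would leave 3.3 CPM in rod-like nuclei, which were above their free-RNA level in 3 of 8 libraries. The rod difference from RGC-like nuclei, -7.22 ± 6.48 CPM, missed the threshold (adjusted exact p = 0.0586) but passed in barcodes with at least 1000 UMIs (-7.84 CPM, adjusted exact p = 0.0391), after thinning (-8.62 CPM, adjusted exact p = 0.026), with free RNA subtracted (-9.75 CPM, adjusted exact p = 0.0391) and without cKO replicate 11 (-9.42 CPM). The glycinergic amacrine difference, -5.84 ± 6.52 CPM, missed it (adjusted exact p = 0.109) and passed without control replicate 4 (-7.53 CPM).

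RGC-like nuclei are a mixture of types, and 8 gates on RGC subset genes were laid over them. A nucleus passed a gate with at least 3 UMIs of the gate genes and at least 3 times the number its depth would give. The gates held 2653 nuclei for Foxp2, 1583 for Cartpt, 873 for Chrm2, 815 for Tbr1, 525 for Opn4, 487 for Spp1 and 91 for Zic1, while 11798 nuclei passed none and 999 several. The Tbr1 gate summed Tbr1 and Jam2. In RGC-like nuclei Jam2 stood at 88.12 CPM and Tbr1 at 4.44 CPM, so Jam2 supplied most of the UMIs counted for that gate. The Opn4 gate summed Opn4, Eomes and Tbx20, which stood at 8.0, 6.74 and 21.01 CPM in RGC-like nuclei. Tbx20 thus supplied most of its UMIs, and a nucleus could pass without an Opn4 UMI. Each gate was compared with all other RGC-like nuclei of the same library, with p-values adjusted over 24 comparisons of 8 gates and 3 genes. The Zic1 gate had enough nuclei in 3 libraries only, and no value there could pass.

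The Spp1 gate, with the osteopontin gene Spp1, Fes and Tpbg, was the only one with a higher level of all 3 genes. Hcn2 stood there at 51.2 ± 10.6 CPM against 29.5 ± 4.29 CPM in the other RGC-like nuclei, 1.74 times the level. The values were 38.8, 44.5, 63.2 and 46.9 CPM in control and 42.9, 65.3, 62.7 and 45.7 CPM in cKO libraries, each above its own library's remaining nuclei. Hcn4 stood at 20.9 ± 5.88 against 10.6 CPM, 1.97 times the level, with 12.9, 18.9, 17.6 and 19.9 CPM in control and 18.1, 27.6, 31.3 and 20.6 CPM in cKO libraries. Hcn3 stood at 14.9 ± 2.82 against 11.4 CPM, 1.31 times the level. All 3 differences were positive in 8 of 8 libraries (adjusted exact paired permutation p = 0.0187 each). Nuclei of the Spp1 gate were deeper, with a mean of 18408 UMIs against 7803 in the rest. Among nuclei with at least 10000 UMIs on both sides, a comparison chosen after the values had been seen, Hcn2 stood at 50.8 against 30 CPM and Hcn3 at 15.4 against 9.79 CPM (adjusted exact p = 0.041 each), and Hcn4 at 19.9 against 11.7 CPM (higher in 7 of 8 libraries, adjusted exact p = 0.0547). With a stricter gate the Hcn3 difference was 2.81 CPM and missed the threshold (adjusted exact p = 0.375).

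**Figure D2:**
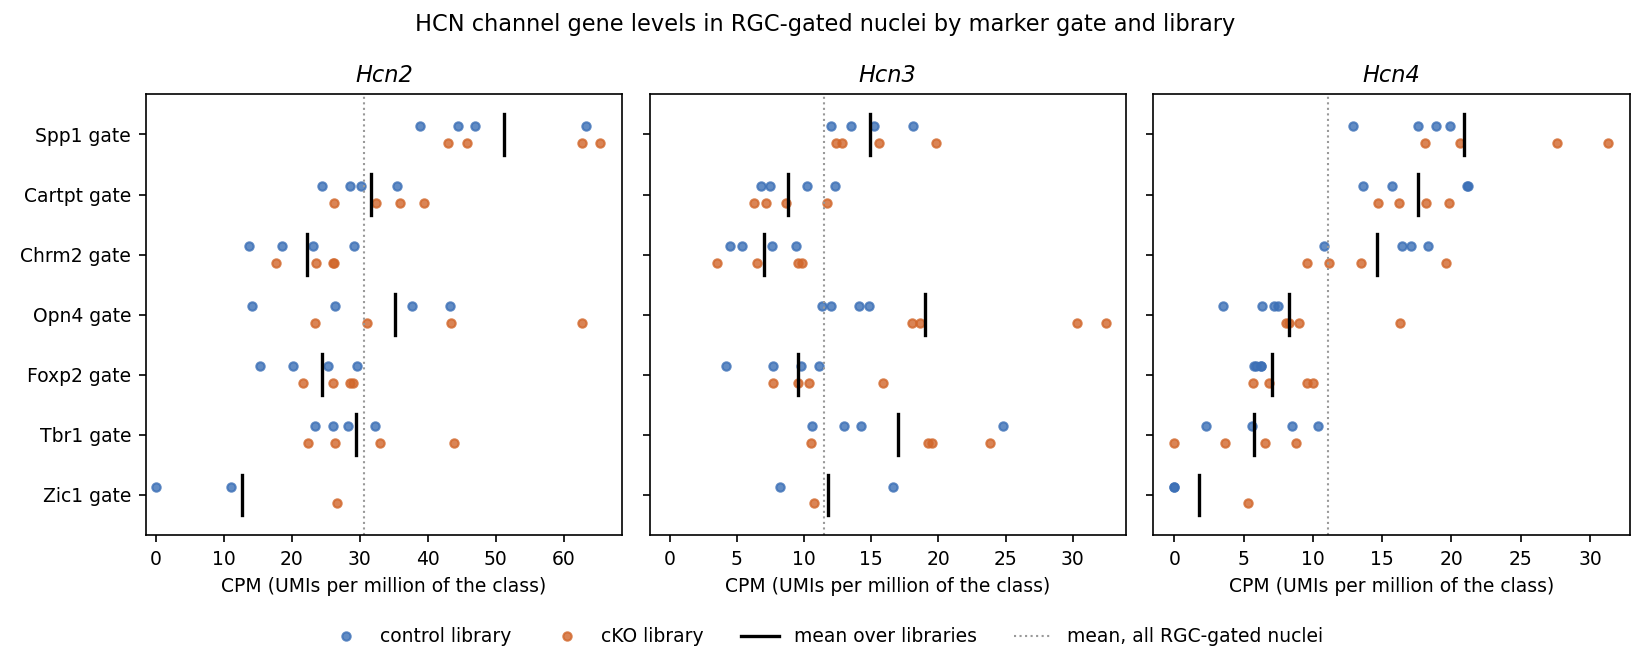
Each point is the level of Hcn2, Hcn3 or Hcn4 in 1 library within RGC-like nuclei that passed 1 marker gate, in CPM, with control libraries in blue and cKO libraries in orange, black bars are means over libraries, and the dotted line is the mean over all RGC-like nuclei. The Spp1 gate is highest for Hcn2 (51.2 CPM) and Hcn4 (20.9 CPM), and the Opn4 gate has the highest mean for Hcn3 over both genotypes (19 CPM), with 13.1 CPM in control and 24.9 CPM in cKO libraries.

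The Cartpt gate, with the peptide gene Cartpt, differed from the rest in Hcn4 and not detectably in Hcn2. Cartpt was widespread outside RGC-like nuclei, at 314.77 CPM in rod-like against 192.98 CPM in RGC-like nuclei. A Cartpt UMI was seen in 30.67% of rod-like and 45.82% of RGC-like nuclei. The part of free Cartpt RNA in the gate was not tested. Hcn4 stood at 17.6 ± 2.95 against 10.6 CPM, higher in 8 of 8 libraries (adjusted exact p = 0.0187), with 13.6, 21.2, 21.1 and 15.7 CPM in control and 16.2, 14.7, 18.2 and 19.8 CPM in cKO libraries. Among nuclei with at least 10000 UMIs the Hcn4 values were 16.2 and 12.5 CPM, and the call was lost (adjusted exact p = 0.258). Over all nuclei of the gate Hcn2 differed from the rest by 1.08 CPM (adjusted exact p = 0.562) and Hcn3 by -2.95 CPM (adjusted exact p = 0.0577), which passed without control replicate 2 (-3.55 CPM). At 10000 UMIs or more these differences were -2.74 CPM (adjusted exact p = 0.29) and -4.13 CPM (adjusted exact p = 0.0703).

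The Opn4 gate, with the melanopsin gene Opn4, Eomes and Tbx20, had a mean Hcn3 level of 19 ± 8.13 against 11.4 CPM, higher in 8 of 8 libraries (adjusted exact p = 0.0187). It was the highest of the gates over both genotypes and in the cKO libraries (24.9 CPM), whereas among control libraries the Tbr1 (15.7 CPM) and Spp1 gates (14.7 CPM) stood above its 13.1 CPM. Under a stricter gate the difference was 6.43 CPM and missed the threshold (adjusted exact p = 0.26). Among nuclei with at least 10000 UMIs it did not pass either, at 16 against 10.4 CPM in 5 libraries (adjusted exact p = 0.202). The Tbr1 gate, with Tbr1 and Jam2, held 17 ± 5.67 against 11.3 CPM of Hcn3, higher in 7 of 8 libraries (adjusted exact p = 0.0469). Leaving out any library but control replicate 2 ended that call, with differences of 4.37 to 6.52 CPM over the sets of 7. No exact p falls under 0.0156 in such a set.

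The Foxp2 gate was low in Hcn2 and Hcn4. Hcn2 stood at 24.5 ± 5.04 against 31.3 CPM and Hcn4 at 7.02 ± 1.74 against 11.6 CPM, each lower in 8 of 8 libraries (adjusted exact p = 0.0187). Foxp2-gated nuclei were shallower than the rest, at 7026 against 8180 UMIs, and among nuclei with at least 10000 UMIs the differences were -9.48 and -7.44 CPM over 7 libraries (adjusted exact p = 0.0729 each). The Tbr1 gate was lower in Hcn4, at 5.73 ± 3.57 against 11.3 CPM (adjusted exact p = 0.0341), a call that leaving out any library but control replicate 1 ended (-6.56 to -4.7 CPM). The 7 libraries then left allow no exact p under 0.0156. The Chrm2 gate, built on the muscarinic receptor gene Chrm2 and on Piezo2 itself, was lower in Hcn2, at 22.2 ± 5.16 against 31 CPM, and in Hcn3, at 7.05 ± 2.44 against 11.8 CPM, in 8 of 8 libraries (adjusted exact p = 0.0187 each). Among nuclei with at least 10000 UMIs these differences were -14.5 and -4.7 CPM (adjusted exact p = 0.041 each), and with a stricter gate the Hcn2 difference was -9.11 CPM (adjusted exact p = 0.0547). Hcn4 in the Chrm2 gate, 14.6 ± 3.8 against 10.9 CPM, did not pass (adjusted exact p = 0.129).

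Control and cKO libraries were then compared within each class by edgeR's quasi-likelihood test, which could be fitted in 10 classes and 7 RGC gates. Calls needed a log2 fold change past 0.5 in either direction together with a Benjamini-Hochberg adjusted p under 0.05. In RGC-like nuclei 0 of 18125 genes were called (0%), with 605 at an unadjusted p under 0.05, and the DESeq2 Wald test called 2. A single gene was called in GABAergic amacrine-like nuclei (0.00929% of those tested), 1 in Müller glia-like nuclei (0.0132%) and 1 in the Foxp2 gate (0.0081%), none of them an HCN gene, and 0% in each of the other classes and gates. All 3 HCN genes had enough counts for the fit in RGC-like and GABAergic amacrine-like nuclei, but in the gates Hcn3 and Hcn4 were too sparse in the Opn4 gate, Hcn4 in the Tbr1 gate and Hcn3 in the Chrm2 gate. No HCN gene was called where it could be tested.

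In RGC-like nuclei the log2 fold change of cKO over control was 0.11 ± 0.14 for Hcn2 (SE, 95% interval -0.20 to 0.42), 0.08 ± 0.11 for Hcn3 (-0.15 to 0.32) and 0.16 ± 0.13 for Hcn4 (-0.12 to 0.44), each at an adjusted p of 0.995 by edgeR. With all 8 libraries the intervals leave out a change of 0.5 in either direction. Without any 1 library the values ran from 0.02 to 0.2 for Hcn2, 0.04 to 0.17 for Hcn3 and 0.07 to 0.24 for Hcn4, and the upper limit then passed 0.5 for Hcn2 without control replicate 3 (0.53) or 4 (0.52) and for Hcn4 without control replicate 2 (0.53) or 3 (0.51). In GABAergic amacrine-like nuclei Hcn2 had a log2 fold change of -0.42 ± 0.21 (SE, 95% interval -0.87 to 0.03, edgeR adjusted p = 0.989), the groups overlapping. When single libraries were left out, that value ran from -0.52 to -0.3. Hcn3 there was at 0.09 ± 0.25 and Hcn4 at -0.18 ± 0.39. These wider intervals do not leave out a change of 0.5.

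**Figure D3:**
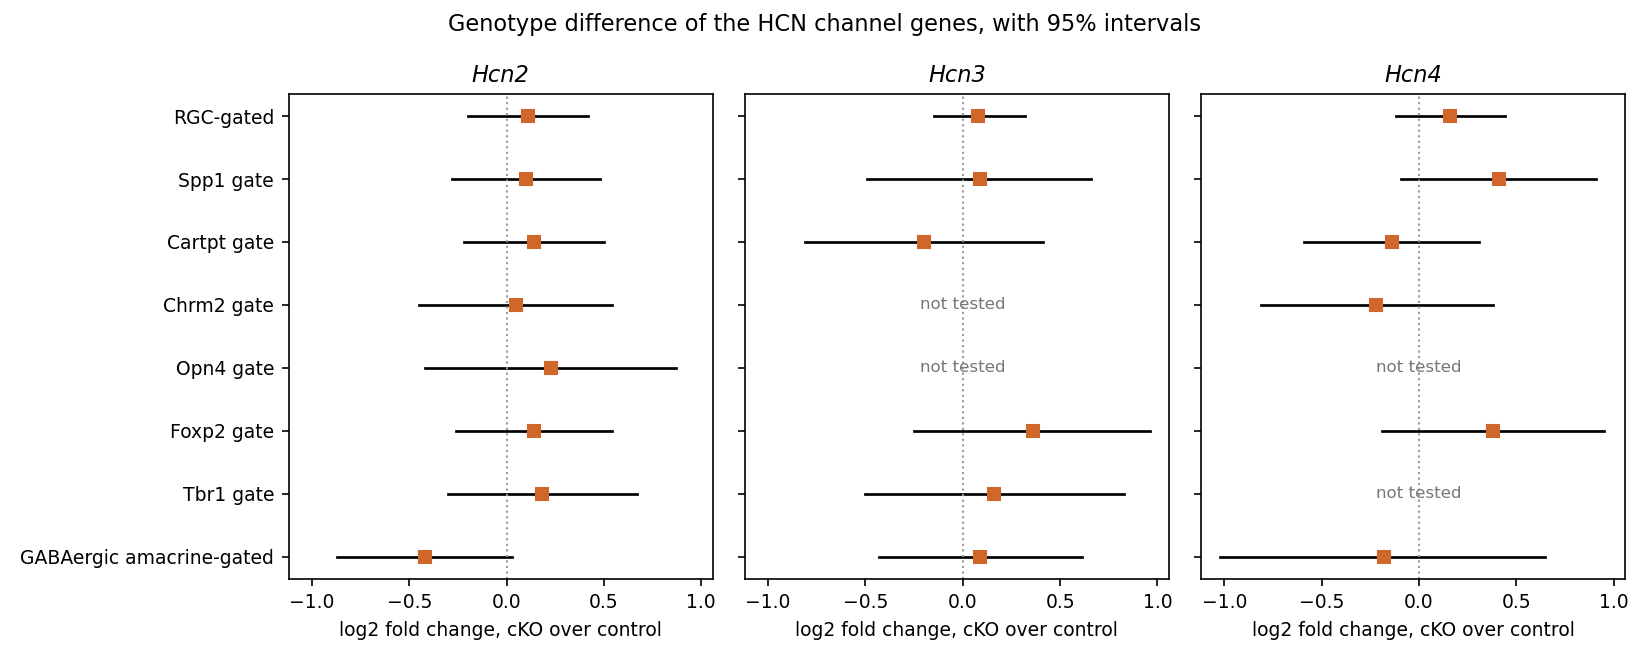
Squares are log2 fold changes of cKO over control from edgeR for Hcn2, Hcn3 and Hcn4 in RGC-like nuclei, in RGC gates and in GABAergic amacrine-like nuclei, and lines are 95% intervals over 8 libraries. Gates in which a gene had too few counts are marked as not tested, and every interval drawn includes 0.

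Within the gates the fitted values of Hcn2 lay between 0.05 and 0.23 on the log2 scale. Hcn4 stood at 0.41 ± 0.24 in the Spp1 gate (SE, 95% interval -0.09 to 0.91, adjusted p = 1 by edgeR) and at 0.38 ± 0.27 in the Foxp2 gate (-0.19 to 0.95, adjusted p = 0.988). With the stricter gate these values were 0.19 and 0.17, and without cKO replicate 12 they were 0.24 and 0.26, with 0.25 in the Foxp2 gate without cKO replicate 13. In the Opn4 gate, where Hcn3 and Hcn4 were too sparse for the fit, the ranges of the genotypes did not overlap. Hcn3 was at 14.1, 14.8, 12 and 11.3 CPM in control and 18, 32.5, 18.6 and 30.3 CPM in cKO libraries, and Hcn4 at 3.53, 6.35, 7.2 and 7.52 CPM in control and 9.01, 16.3, 8.28 and 8.09 CPM in cKO libraries. A two-sided exact permutation test, added after the levels had been seen, gave p = 0.0286 for each, the smallest that 4 against 4 libraries allow, and an adjusted p of 0.624 over 51 such values. That smallest p can pass the adjustment only if a large part of the 51 reach it, so the adjusted p decides nothing here. Fits under other settings could be made in this gate and gave Hcn3 a log2 fold change of 0.78 (95% interval 0.13 to 1.42, edgeR adjusted p = 0.821) without doublet removal and of 0.80 (0.07 to 1.53, edgeR adjusted p = 0.792) without the filter on low counts. The filter passes a gene with enough counts in 4 libraries, so the higher cKO libraries alone could let Hcn3 into the fit without doublet removal. The interval of that fit therefore decides nothing. Which libraries let the gene in was not tested. Without that filter Hcn4 was at 0.52 (-0.56 to 1.59, edgeR adjusted p = 0.792). No other value of the 51 was without overlap between genotypes. Outside the 51, in all bipolar-like nuclei summed, Hcn2 was at 8.2, 6.78, 6.11 and 7.21 CPM in control and 9.64, 14.9, 9.66 and 20.8 CPM in cKO libraries, without overlap, from 36 UMIs. This sum was picked after the levels had been seen, and its difference was not tested. Taken alone, the rod bipolar, ON cone bipolar and OFF cone bipolar-like nuclei each overlapped between genotypes in Hcn2. The shares over all genes given below do not cover that sum, so how common such a gap is there is not known. Of the HCN values with at least 20 UMIs, 2 of 32 did not overlap (6.25%), and in the Opn4 gate 2 of 3. Over all genes with at least 20 UMIs the groups did not overlap for 3.54% in the Opn4 gate and for 3.14% over all classes and gates. In rod bipolar-like nuclei Hcn3 stood at 32.9 ± 8.8 CPM in control and 36.6 ± 6.18 CPM in cKO libraries (exact permutation p = 0.543).

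Subunits of HCN channels bind partner proteins and respond to cyclic AMP, and 25 genes for partners, adenylyl cyclases and phosphodiesterases were listed for this reason. None of them was called between genotypes in any class or gate. In RGC-like nuclei 24 were tested, 2 had an unadjusted p under 0.05, and their median log2 fold change was -0.05, against 0.01 over all genes tested. The extremes there were Tamalin, a scaffold gene, at 0.35 ± 0.32, and Pde10a, a phosphodiesterase gene, at -0.28 ± 0.24 (SE, adjusted p = 0.995 each by edgeR). In rod bipolar-like nuclei 10 were tested, with a median of -0.08 against 0.01, from Kcne2 at 0.11 ± 0.32 to Pde10a at -0.76 ± 0.31. In GABAergic amacrine-like nuclei 21 were tested, with a median of -0.04 against 0.00, from Pde1a at 0.28 ± 0.34 to Adcy8 at -0.23 ± 0.11.

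The partner genes had class profiles of their own, described here for a few chosen after their values had been seen. Pex5l, which encodes the HCN auxiliary subunit TRIP8b, had its highest mean in rod-like nuclei at 3468 CPM, with 694 CPM in RGC-like and 61.4 CPM in rod bipolar-like nuclei. Kcne2, a small accessory channel subunit gene, had its highest means in cone-like (178 CPM) and rod bipolar-like nuclei (53.1 CPM) and 0.855 CPM in RGC-like nuclei. Pde4b, a phosphodiesterase gene, had its highest mean in rod bipolar-like nuclei, 2977 CPM, against 630 CPM in RGC-like nuclei.

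Across the 11 classes, the mean log2(CPM + 1) of Hcn2 had a Pearson correlation of 0.361 with that of Hcn3 and of 0.305 with that of Hcn4, and Hcn3 and Hcn4 one of 0.549. Genes were then ranked by the likeness of their pattern, among 16563 with at least 200 UMIs. The class markers and the HCN genes were left out of this ranking. The patterns most like Hcn2 were those of Actr3b (0.924), Gas2 (0.885), Tafa2 (0.865), Gm29514 (0.863) and Fam81a (0.861). Those most like Hcn3 were Ntng1 (0.941), Azin2 (0.937), Grm5 (0.929), 2410021H03Rik (0.927) and Gm47664 (0.926). Those most like Hcn4 were Gm17111 (0.941), Arhgdig (0.921), Gria2 (0.917), Gm56681 (0.914) and Gm37814 (0.912). The points are classes from the same libraries with unlike depth. For each gene some of them rest on fewer than 10 UMIs, more of them for Hcn3 and Hcn4 than for Hcn2, so these are descriptions without a test.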

How the data were processed

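The deposited tables hold UMI counts, not normalized, for every gene and every listed barcode, empty droplets included. The submitters' processing notes name Cell Ranger 7.0.0 and the GRCm39 build. The authors' later steps, such as removal of free RNA and doublets and the naming of cells, are not in these tables. They were rebuilt here by other means, and values can depart from those of the study for that reason. All steps after counting were computed here with Python 3.11.15, scanpy 1.11.5 and R packages edgeR 4.0.16 and DESeq2 1.42.0. Of 12695972 barcodes, 45944 were called as nuclei by UMI total or by a profile unlike that of empty droplets. Nuclei with under 200 genes, over 5% mitochondrial UMIs or outlying totals were removed, as were the 1378 highest Scrublet scores (0.8% per 1000 nuclei).

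A nucleus joined a family, such as all amacrine or all bipolar nuclei, with at least 3 UMIs from at least 2 marker genes. Their scaled level had to be 2 or more times that of any other family. Amacrine subtypes needed at least 2 UMIs of their transmitter genes. Rod bipolar-like nuclei passed the rod bipolar list at 2 or more times the OFF list. ON cone bipolar-like nuclei passed the ON list and not the rod bipolar list, so no such margin separates them from rod bipolar-like nuclei. Members and lists were chosen with earlier results of these data known, and a few listed markers that other nuclei carried were left out of the gates after marker levels, never HCN levels, had been seen. UMIs were summed per library and class, and a library entered with more than 10 nuclei and 1000 counts. Levels were compared by two-sided exact paired permutation, and genotypes by edgeR's quasi-likelihood test (TMM, filterByExpr, Benjamini-Hochberg over all genes tested in a class). In a test on simulated data edgeR recovered 84% of genes changed by 1 on the log2 scale in RGC-like nuclei (18125 genes) and 58.5% in rod bipolar-like nuclei (4486 genes). Named genes were the 3 members, the 5 most similar patterns to each, the listed partner genes with the highest and lowest fold change, and Piezo2. Of the 8 RGC gates, 1 is not reported here, but it stayed in the fits and in the adjustment of p-values. Intervals and limits of a count of 0 (3 counts) cover counting error only.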

Additional observations from a re-analysis of the deposited data

Results flagged for a closer look

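Hcn4 in the Opn4 gate stood at 16.3 CPM in cKO replicate 11, apart from the 8.09 to 9.01 CPM of the other cKO libraries. It was the only such gap among 64 groups of 4 libraries, and chance sets apart about 1 group in 20. The library had 6 Hcn4 UMIs in that gate.

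The genotype difference of Hcn2 had opposite signs in GABAergic amacrine-like nuclei (-5.55 CPM, cKO minus control) and RGC-like nuclei (3.75 CPM), in a comparison added after the levels had been seen. On the log2 scale the ratio of the first to the second changed by -0.50 from control to cKO libraries, from -0.18 to -0.68. A two-sided exact permutation test gave p = 0.0286, the smallest possible, and an adjusted p of 0.386 over 27 such comparisons. For Hcn3 the ratio of the Opn4 gate to the other RGC-like nuclei changed by 0.74, from 0.23 to 0.97, with the same exact p of 0.0286 and adjusted p of 0.386. Over 27 comparisons the smallest p can pass only if a large part of them reach it, so neither adjusted p decides the question.

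The 5901 nuclei that passed no class gate, used in no comparison, also carried the genes, at 21.3 CPM for Hcn2 (8.19 to 27.9 CPM over libraries), 24 CPM for Hcn3 (15.6 to 33.7 CPM) and 9.56 CPM for Hcn4 (6.23 to 17.2 CPM). Their Hcn3 mean lay above that of RGC-like nuclei and below that of rod bipolar-like nuclei.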

How the results depend on the processing

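No paired analysis was possible because the genotypes share no replicate numbers. Several classes held fewer than 20 UMIs of a gene, and 7 libraries allow no exact paired p under 0.0156. The signs of the Hcn2, Hcn3 and Hcn4 genotype values in RGC-like nuclei held in each alternative run, and the cause of the changes listed here was not tested.

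Genes called between genotypes over the 10 classes numbered 2, and 7 with DESeq2, 180 without a filter on low counts, and 1 to 9 when a library was left out. Over the 7 gates they numbered 1, and 2 with DESeq2, 114 without the filter, 4 with the stricter gate, 3 in barcodes with at least 1000 UMIs, 2 without doublet removal, and 0 to 3 when a library was left out. The log2 fold change of Hcn3 in the Spp1 gate turned to -0.15 with the stricter gate and -0.02 at 1000 UMIs, and that of Hcn2 to -0.15 in the Tbr1 gate (stricter) and -0.01 in the Chrm2 gate (no doublet removal).

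Calls were gained for Hcn4 in rod nuclei in barcodes with at least 1000 UMIs (-7.84 CPM), after thinning (-8.62 CPM), with free RNA subtracted (-9.75 CPM) and without cKO replicate 11 (-9.42 CPM), for Hcn3 in glycinergic nuclei with free RNA subtracted (-2.17 CPM), for Hcn2 in cone (-18.1 CPM) and Hcn4 in glycinergic nuclei (-7.53 CPM) without control replicate 4, for Hcn3 in the Cartpt gate without control replicate 2 (-3.55 CPM) and for Hcn4 in the Opn4 gate without cKO replicate 11 (-4 CPM).

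After thinning to 1000 UMIs per nucleus, differences from RGC-like nuclei missed the threshold for Hcn2 in starburst (-21.4 CPM), GABAergic (-15 CPM), glycinergic (-19.5 CPM), ON (-12.1 CPM) and OFF cone bipolar nuclei (-15.5 CPM), and for Hcn3 in starburst (-13.1 CPM), GABAergic (4.79 CPM), rod bipolar (27.7 CPM), OFF (36.7 CPM), rod (-10.8 CPM), cone (-2.73 CPM) and Müller glia nuclei (-11.6 CPM), and Hcn3 in ON cone bipolar nuclei turned to -0.37 CPM. With the stricter gate this held for Hcn2 in GABAergic (-7.01 CPM), ON (-18 CPM) and rod nuclei (-15.7 CPM), Hcn3 in GABAergic nuclei (4.58 CPM) and Hcn4 in rod bipolar (-7.29 CPM) and Müller glia nuclei (-9.2 CPM). Hcn3 in OFF cone bipolar nuclei missed it in barcodes with at least 1000 UMIs (17.5 CPM) and, in a comparison chosen after seeing the data, with free RNA subtracted (26.1 CPM), and its difference from rod bipolar nuclei turned to -7.4 CPM in the former.

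In the RGC gates, the stricter gate ended calls of Hcn2 in Chrm2 (-9.11 CPM), Hcn3 in Opn4 (6.43 CPM) and Spp1 (2.81 CPM), and Hcn4 in Tbr1 (-5.99 CPM), and Hcn2 in Tbr1 turned to 1.03 CPM, and to 0.365 CPM without doublet removal. In nuclei with at least 10000 UMIs, also chosen after seeing the data, calls were lost for Hcn2 in Foxp2 (-9.48 CPM), Hcn3 in Tbr1 (5.19 CPM), and Hcn4 in Spp1 (8.17 CPM), Foxp2 (-7.44 CPM), Tbr1 (-7.17 CPM) and Cartpt (3.72 CPM), and Hcn2 in Cartpt turned to -2.74 CPM. Thinning lowered the share of nuclei with a UMI to 2.88% for Hcn2, 1.33% for Hcn3 and 1.08% for Hcn4 in RGC-like nuclei and 3.89% for Hcn3 in rod bipolar nuclei.

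When single libraries were left out, log2 fold changes whose sign turned ran from -0.49 to 0.06 for Hcn4 in GABAergic nuclei, from -0.12 to 0.46 for Hcn2 in the Opn4 gate, from -0.10 to 0.17 for Hcn3 in the Spp1 gate, from -0.06 to 0.33 for Hcn2 and from -0.06 to 0.49 for Hcn3 in the Tbr1 gate and from -0.06 to 0.21 for Hcn2 in the Chrm2 gate. Calls against RGC-like nuclei that were lost in some of these sets ran from -6.93 to -5.02 CPM for Hcn3 in starburst, 21 to 33.2 CPM in OFF cone bipolar and -10 to -7.21 CPM in cone nuclei, and for Hcn4 from -9.3 to -8.05 CPM in rod bipolar, -11.4 to -9.53 CPM in cone and -9.78 to -8.96 CPM in Müller glia nuclei. The OFF against rod bipolar difference of Hcn3 ran from -0.681 to 9.66 CPM, the Tbr1 gate difference from 4.37 to 6.52 CPM for Hcn3 and from -6.56 to -4.7 CPM for Hcn4.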
